A study of Rattus norvegicus with 6 samples.

Results

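Lysosomal cathepsins were followed in cultures prepared as spinal cord neurons, from neonatal Sprague-Dawley rats, in which galectin-3 (GAL3, listed as LGALS3) had been silenced. The set held 10 genes out of the 17648 in the expression matrix, namely CTSA, CTSB, CTSC, CTSD, CTSF, CTSH, CTSK, CTSL, CTSS and CTSZ. They were found by gene symbol, and the set, with CTSZ placed against the other cathepsins, was selected on earlier results of the same comparison. Their differences between groups are therefore given as a description. Where a limit on p from limma is applied to cathepsins below, it serves for counting only, and nothing is read from it. RNA was sequenced from 3 libraries of neurons transfected with a control small interfering RNA (Glu + siR-Con) and 3 libraries of neurons transfected with an siRNA against GAL3 (Glu + siR-GAL3). The labels do not say whether the libraries came from separate cultures. The methods of the study speak of independent repeats for its data in general, without naming the sequencing, so the spread between libraries may be technical. The cells were cultured for 3 days with Ara-C at 0.05 mg/mL, which kills dividing cells, before the injury model. The methods and the design text of the study have both groups exposed to glutamate, at 10 μM for 1 h and followed by 16 h without it. The sample labels, however, give saline for the siR-Con libraries and glutamate for the siR-GAL3 libraries, and they name the second group a knockout. If the labels were right, silencing and glutamate could not be told apart.

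Cathepsins are proteases of the lysosome, the acidic compartment in which material delivered by autophagy and endocytosis is broken down. They are made as inactive precursors, are sorted to the lysosome mainly through mannose 6-phosphate receptors, and are activated by cleavage at low pH. CTSB, CTSC, CTSF, CTSH, CTSK, CTSL, CTSS and CTSZ are cysteine proteases, CTSD is an aspartic protease and CTSA is a serine carboxypeptidase. Cystatins inhibit the cysteine cathepsins, and transcription factors of the MiT/TFE family, such as TFEB, activate many lysosomal genes through promoter elements built on the sequence CACGTG. In the spinal cord, CTSB, CTSD and CTSL are made by most cells, whereas CTSS is known mainly from microglia.

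The authors derived the values from FPKM, a unit per transcript length. After FPKM the authors took out batch effects, standardized what was left and adjusted differences within groups. In the deposited matrix, 3.86% of all values were below 0, none of them a cathepsin value, and the sequencing depth is unknown. Whether these steps kept levels comparable between genes cannot be checked from the values, so the order of levels below is that of the deposited scale. Exactly equal values divided the libraries into 3 sets. Set 1 held replicate 1 of both groups, set 2 held siR-Con replicates 2 and 3 with siR-GAL3 replicate 3, and siR-GAL3 replicate 2 was alone. Libraries of one set had 1312 to 1463 nonzero values in common and libraries of different sets had 238 to 264. No cathepsin had the same value in any pair of libraries. Replicate 2 of siR-GAL3 also stood apart on the first principal component, which carried 65.2% of the variance. In replicates 1, 2 and 3, LGALS3 was 77.4, 54.4 and 62.4 in siR-Con and -1.64, 32.3 and 18.5 in siR-GAL3, without overlap. Replicate 2 of siR-GAL3 thus had the highest LGALS3 value of its group. The value of siR-GAL3 replicate 1 is below 0 and cannot be read as a level.

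The labelled cell type was checked against its markers. Of 13 neuron markers in the matrix only 5 had a mean of at least 1. RBFOX3, which encodes the neuronal protein NeuN, lay between 0.300 and 0.429, and TUBB3, the neuronal β-tubulin, between 4.03 and 5.19. The highest neuron markers were MAP2, a dendritic microtubule protein, at 13.1 to 19.0 and ELAVL3, a neuronal RNA-binding protein, at 7.81 to 11.02. The astrocyte filament gene GFAP lay between 514.8 and 757.7 and the myelin gene MBP between 628.6 and 918.5. Summed microglia markers were 132.7 to 158.6 in siR-Con and 173.4 to 192.4 in siR-GAL3. Summed neuron markers were 31.9 to 38.9 over all libraries. The sums were 752 to 1012 for astrocyte markers and 1041 to 1366 for markers of the oligodendrocyte lineage. The lists hold different genes, so these sums do not give the shares of the cell types. The cathepsin values are thus those of a culture with much glial RNA, and which cells they come from was not tested. In RNA from whole cultures, fewer cells of a type and less RNA per cell cannot be told apart.

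Promoter sequences are shown for the genes on which the description turns, from RefSeq (assembly GRCr8), which held an entry for 9 of the 10 cathepsins and none for CTSB. The genome build of the deposited values is not given in the sources used here, so gene and promoter were joined by symbol only. The 250 bases before each gene's start were searched on both strands for CACGTG, for the longer TCACGTGA that contains it, and for GAAA followed after any 2 bases by another GAAA, the core of the element bound by interferon-activated factors. CACGTG was present before CTSD, at 2 positions, and before CTSF, which is 2 of 9 promoters, against 8.62% of the 7530 promoters of genes tested and 5.59% of all 33469. TCACGTGA was found before CTSD only among the cathepsins, and before 1.69% of the promoters of genes tested. The double GAAA was found before CTSS only, and before 2.46% of the promoters of genes tested. A match describes the sequence and not a bound site. The stretches follow in the gene's direction, with the matched bases in capitals. They lie at chr1:206968957-206968994 (minus strand) for the far element of CTSD, chr1:206968822-206968848 (minus strand) for the near one, chr1:211582004-211582041 (plus strand) for CTSF and chr2:185775344-185775385 (plus strand) for CTSS.
CTSD far element: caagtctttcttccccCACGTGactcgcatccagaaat
CTSD near element: gcccctcgcccgcgtcTCACGTGAccc
CTSF: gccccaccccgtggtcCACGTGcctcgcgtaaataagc
CTSS: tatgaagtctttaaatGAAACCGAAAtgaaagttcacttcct

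CTSZ, the member with the largest log2 fold change, had none of these elements in its 250 bases. The last 100 bases before its start (chr3:183653848-183653947, minus strand) are shown for contrast. They are 77% G and C and hold 3 GC boxes, the GGGCGG element in either direction, which are in capitals here. At least 1 such box is found in the same 100 bases of 21.6% of all promoters. The share with 3 boxes and the share among genes tested were not computed, so it cannot be said how unusual CTSZ is.
CTSZ: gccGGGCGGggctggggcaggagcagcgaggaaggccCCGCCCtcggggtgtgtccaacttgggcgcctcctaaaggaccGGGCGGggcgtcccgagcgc

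Among the cathepsins, the levels in siR-Con spanned a wide range. CTSB, a cysteine protease with both endopeptidase and peptidyl-dipeptidase activity, was highest at 125.3 ± 12.8 (SD, n = 3). It ranked 37 of the 17648 genes by its mean over the 6 libraries. CTSL and CTSD followed at 62.3 ± 4.25 and 61.1 ± 4.22 (SD, n = 3 each), and their libraries overlapped. CTSA (19.0 ± 0.949) and CTSS (14.0 ± 0.956) came next, without overlap between them (SD, n = 3 each). CTSH (9.84 ± 0.512) and CTSZ (8.26 ± 1.30) overlapped each other (SD, n = 3 each). CTSF at 5.54 ± 0.298 and CTSC at 4.42 ± 0.265 were lower, and CTSK, the collagen-degrading enzyme of osteoclasts, was lowest at 1.28 ± 0.151 (SD, n = 3 each). In siR-GAL3, CTSZ had rank 5 instead of rank 7, and its libraries overlapped those of both CTSA and CTSS. CTSD lay above CTSL in each siR-GAL3 library, while in siR-Con it did so in replicate 2 only. Only 3 of the 15 other cathepsin genes looked for were in the matrix, CTSE, CTSW and CTSLL3, and none of them exceeded 0.182 in any library.

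**Figure D1:**
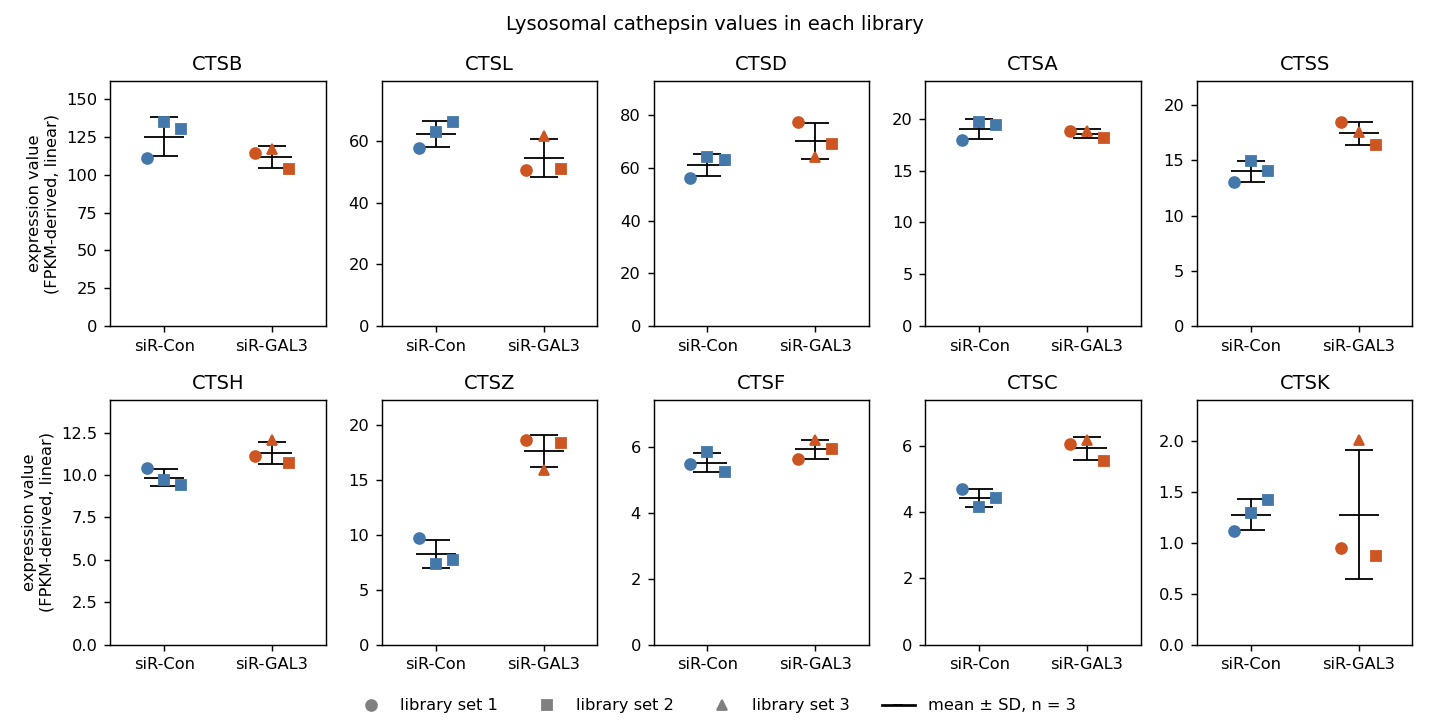
Expression value (FPKM-derived, linear scale from 0) of the 10 cathepsins in each library, with siR-Con in blue and siR-GAL3 in orange, the library set given by the symbol and bars for mean ± SD (n = 3). The CTSZ values of siR-GAL3, 15.9 to 18.6, lie well above those of siR-Con, 7.30 to 9.74, whereas the siR-GAL3 triangle of CTSK, at 2.01, stands apart from the other libraries.

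CTSZ, also called cathepsin X, is a carboxypeptidase that removes single residues from the end of proteins. In replicates 1, 2 and 3, its values were 9.74, 7.30 and 7.73 for siR-Con and 18.6, 15.9 and 18.4 for siR-GAL3. All siR-GAL3 libraries were higher than all siR-Con libraries, and the nearest pair was 6.19 apart. The group mean was 2.14 times as high in siR-GAL3 (17.6 ± 1.48 against 8.26 ± 1.30, SD, n = 3 each). On log2(value + 1), the scale of all log2 fold changes here, which understates the change of low genes, the difference was 1.02 with a standard error of 0.12. It was 0.87 between the 2 libraries of set 1 and 1.19 within set 2, and 1.08 without siR-GAL3 replicate 2. With each library left out in turn it lay between 0.94 and 1.13. On this scale, CTSZ was the only cathepsin with |log2 fold change| > 1 and an unadjusted P < 0.05 in limma, which 0.259% of the 8495 genes tested met with a higher value in siR-GAL3. With the same limits applied to values that were not log-transformed, where 1 is a unit of the value, 4 cathepsins were past them and higher, CTSC, CTSH, CTSS and CTSZ, with differences of 1.49, 1.46, 3.46 and 9.39. On that scale 0.856% of all 17648 genes were past them and higher and 0.935% lower, with no cathepsin among the lower ones. Since the members were picked with this comparison in view, nothing is read from these counts.

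The other 9 cathepsins had a median log2 fold change of 0.09, and CTSZ lay 0.93 above this median and 0.67 above the next member, CTSC. Over all 10 cathepsins the median was 0.13, with 6 higher and 4 lower, against a median of -1.19e-05 over all genes tested. In siR-GAL3, 5 of the cathepsins, that is CTSC, CTSD, CTSH, CTSS and CTSZ, were higher without overlap between the groups, and no cathepsin was lower without overlap. Of all genes tested, 10.3% were higher and 10.3% were lower without overlap. The members were chosen with this contrast known, so these counts are given for orientation.

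CTSC, or dipeptidyl peptidase I, activates serine proteases of immune cells. It was 4.69, 4.16 and 4.42 in siR-Con and 6.05, 6.16 and 5.53 in siR-GAL3, in replicate order. The mean was 1.34 times as high in siR-GAL3, and the log2 fold change was 0.35 (standard error 0.07). This difference was nearly equal within both library sets, 0.31 in set 1 and 0.30 in set 2.

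CTSS, a protease that stays active at neutral pH and processes the invariant chain of MHC class II, was 13.0, 14.9 and 14.0 in siR-Con. In siR-GAL3 it was 18.5, 17.5 and 16.4. Each siR-GAL3 library was above each siR-Con library, and the log2 fold change was 0.30 (standard error 0.08). The difference was 0.47 within set 1 but only 0.17 within set 2.

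CTSH, an aminopeptidase, was 10.4, 9.73 and 9.40 in siR-Con and 11.1, 12.04 and 10.7 in siR-GAL3. The nearest libraries of the 2 groups were 0.324 apart, and the log2 fold change was 0.18 (standard error 0.07). It was 0.14 without siR-GAL3 replicate 2, which held the highest value.

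CTSD, the main aspartic protease of the lysosome, was 56.2, 64.0 and 62.9 in siR-Con and 77.5, 64.1 and 69.1 in siR-GAL3. The groups were separated by only 0.103, between siR-GAL3 replicate 2 and siR-Con replicate 2, and after median-ratio scaling of the libraries they overlapped. The log2 fold change was 0.20 (standard error 0.09), with 0.46 within set 1 and 0.12 within set 2. As the promoter stretches above show, CTSD is the cathepsin with CACGTG at 2 positions.

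CTSF, the other cathepsin with CACGTG before its start, was 5.50, 5.85 and 5.26 in siR-Con and 5.66, 6.21 and 5.94 in siR-GAL3. The groups overlapped, and the log2 fold change was 0.09 (standard error 0.07).

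CTSL and CTSB, the abundant cysteine endopeptidases, leaned the other way. CTSL was 57.8, 62.9 and 66.2 in siR-Con and 50.7, 61.8 and 51.0 in siR-GAL3, and the log2 fold change was -0.19 (standard error 0.10). Replicate 2 of siR-GAL3 overlapped the siR-Con libraries, and without it the groups did not overlap and the log2 fold change was -0.29. CTSB was 110.8, 135.1 and 130.1 in siR-Con and 114.2, 117.3 and 103.7 in siR-GAL3, and the log2 fold change was -0.16 (standard error 0.10). The 2 library sets differed in direction for CTSB, with 0.04 in set 1 and -0.35 in set 2. For both genes the difference was within the range of the replicates.

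CTSA, which protects β-galactosidase and neuraminidase 1 in the lysosome, was 17.9, 19.7 and 19.4 in siR-Con and 18.8, 18.8 and 18.1 in siR-GAL3. Its log2 fold change was -0.03 (standard error 0.07), and the direction differed between set 1 (0.07) and set 2 (-0.10). Its partners GLB1 and NEU1 had log2 fold changes of -0.02 and 0.22 (standard errors 0.08 and 0.12), and both overlapped between the groups. NEU1 had 0.12 without siR-GAL3 replicate 2.

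CTSK was 1.12, 1.29 and 1.42 in siR-Con and 0.949, 2.01 and 0.875 in siR-GAL3. The value of siR-GAL3 replicate 2 was higher than any other, and the remaining siR-GAL3 libraries were lower than every siR-Con library. The log2 fold change of -0.03 (standard error 0.18) became -0.25 without siR-GAL3 replicate 2, and 0.09 without siR-GAL3 replicate 3, so the direction rests on single libraries.

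**Figure D2:**
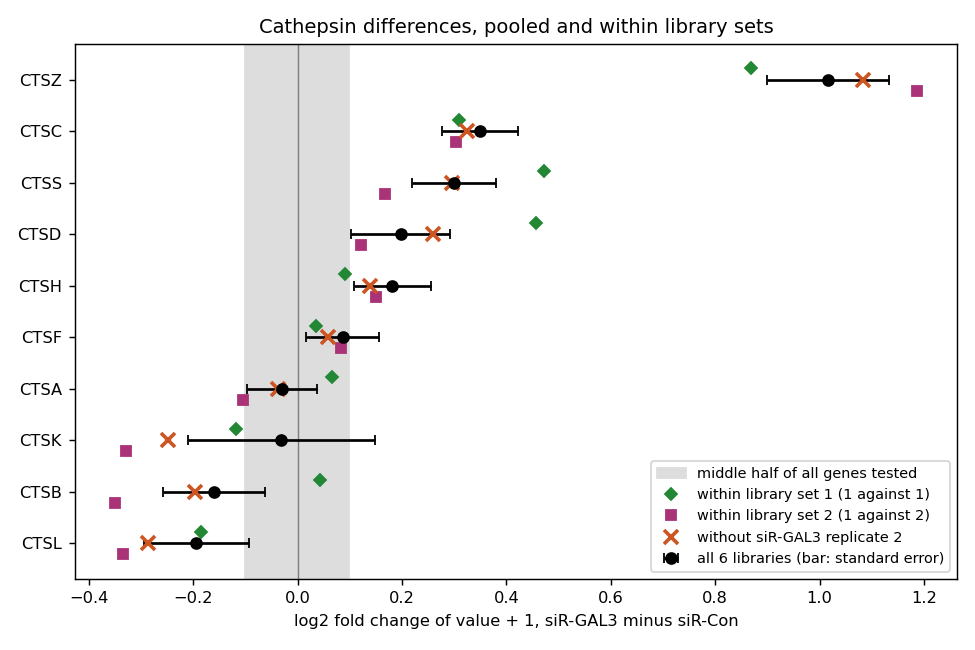
Log2 fold change of value + 1 (siR-GAL3 minus siR-Con, horizontal axis) of each cathepsin. Black points are all 6 libraries with the standard error as a bar, crosses leave out siR-GAL3 replicate 2, diamonds and squares are the differences within library sets 1 and 2, and the grey band is the interquartile range of all genes tested (-0.10 to 0.10). CTSZ lies at 0.87 or above in each, while CTSA and CTSB have opposite signs in the 2 sets.

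The summed level of the 10 cathepsins did not follow the group. It was 311.0 ± 20.7 in siR-Con and 314.6 ± 12.8 in siR-GAL3 (SD, n = 3 each), and the libraries overlapped. What differed was the composition. In replicates 1, 2 and 3, CTSZ made up 3.39%, 2.25% and 2.41% of the sum for siR-Con and 5.78%, 4.95% and 6.13% for siR-GAL3. CTSB, CTSL and CTSD together made up 78.3% to 80.8% of the sum in siR-Con and 74.7% to 75.6% in siR-GAL3. The share of CTSB alone was 40.2% ± 1.51 in siR-Con and 35.5% ± 0.919 in siR-GAL3 (SD, n = 3 each). The ratio of CTSZ to CTSS, which share the higher level in siR-GAL3, was 0.488 to 0.747 in siR-Con and 0.910 to 1.12 in siR-GAL3. These shares and ratios use the same values as the differences above.

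**Figure D3:**
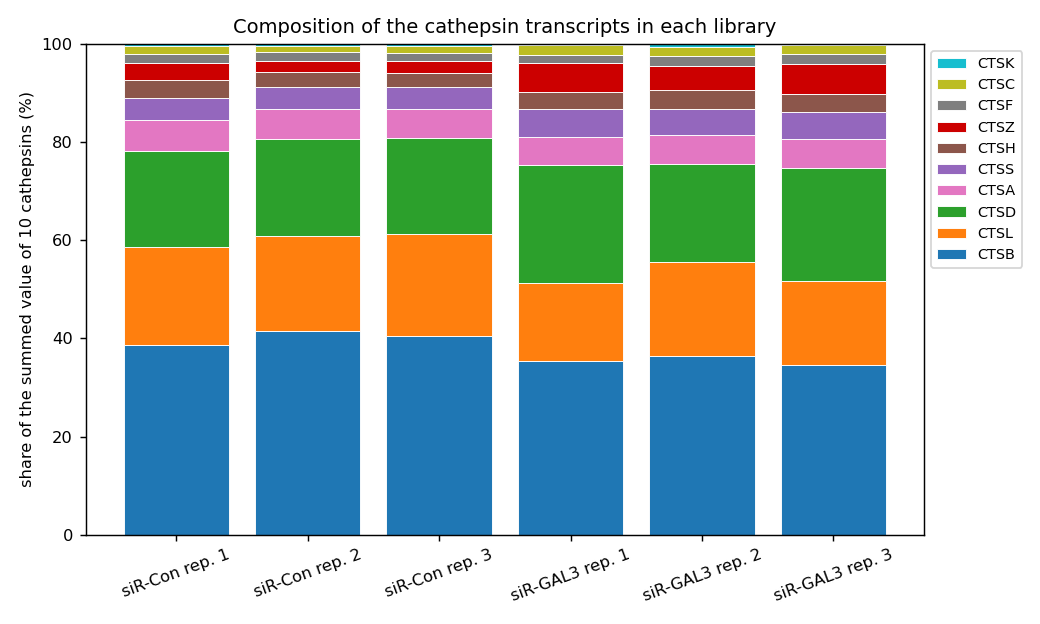
Share of each cathepsin (%, vertical axis) in the summed value of the 10 cathepsins, for each library. The red CTSZ segment is 2.25% to 3.39% of the bar in siR-Con and 4.95% to 6.13% in siR-GAL3. Together, the 3 lowest segments, CTSB, CTSL and CTSD, take a smaller part in siR-GAL3. The CTSD segment alone is larger there, at 22.3% of the summed group means against 19.6% in siR-Con.

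The inhibitors, sorting factors and other enzymes of the lysosome were examined from lists chosen with earlier results of these data known. In limma no gene of these lists had a Benjamini-Hochberg adjusted p under 0.05, as was the case for all 8495 genes. Without adjustment, 375 genes (4.41%) were higher and 361 (4.25%) lower with a p under 0.05.

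Of the cystatins, CST3 and CSTB passed the filter of a mean of at least 1. CST3, the secreted cystatin C, was 246.3, 202.3 and 202.3 in siR-Con, where replicates 2 and 3 had exactly the same value, and 187.6, 233.3 and 186.8 in siR-GAL3. Its log2 fold change was -0.10 (standard error 0.12), and that of CSTB, which acts inside the cell, was 0.10 (standard error 0.13). These rested on single libraries, since without siR-GAL3 replicate 2 CST3 had -0.21 and CSTB -0.04, and without siR-Con replicate 1 CST3 had -0.01. CST7, the cystatin of immune cells, did not exceed 0.0398 in any library. Neither tested cystatin had an unadjusted p under 0.05.

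Of 11 sorting and activation genes tested, 3 were higher and 8 lower, with a median log2 fold change of -0.11, and without siR-GAL3 replicate 2 the median was 0.01. One had an unadjusted p under 0.05, SORT1, the sortilin receptor that carries enzymes to the lysosome independently of mannose 6-phosphate. It was 4.92, 5.68 and 6.09 in siR-Con and 3.99, 4.69 and 3.83 in siR-GAL3, without overlap, a log2 fold change of -0.34 (standard error 0.10). Without siR-GAL3 replicate 2 its adjusted p was under 0.05, as it was for 167 of the 8458 genes tested then. The mannose 6-phosphate receptors did not stand apart. M6PR, between 0.752 and 1.08, was under the filter, and IGF2R had a log2 fold change of -0.11 (standard error 0.13). LGMN, the protease that cleaves several cathepsins to their mature form, had a log2 fold change of 0.13 (standard error 0.10), PSAP, the saposin precursor, one of -0.12 (standard error 0.08), and LRP1, an endocytic receptor, one of -0.42 (standard error 0.25), with its lowest value, 4.53, in siR-GAL3 replicate 2. Without that library LRP1 had -0.11, IGF2R 0.05, LGMN 0.20 and PSAP -0.08.

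Of 31 other lysosomal hydrolases tested, 18 were higher and 13 lower, and the median log2 fold change was 0.01. An unadjusted p under 0.05 was found for 2 higher genes and 1 lower gene. RNASET2, the lysosomal ribonuclease, was 12.9, 13.2 and 13.4 in siR-Con and 18.9, 17.8 and 16.6 in siR-GAL3, and the log2 fold change was 0.40 (standard error 0.07). Without siR-GAL3 replicate 2 its adjusted p in limma was under 0.05, as it was for 167 of the 8458 genes tested then. DPP7, a dipeptidyl peptidase, and LIPA, the acid lipase, had log2 fold changes of 0.16 and -0.17 (standard error 0.07 each). The hydrolase with the highest log2 fold change, RNASET2, was thus below CTSZ and above CTSC. Of the MiT/TFE factors TFEB, TFE3 and MITF had log2 fold changes of 0.14, -0.12 and -0.10 (standard errors 0.09, 0.07 and 0.07), with no unadjusted p under 0.05, and TFEB had 0.05 without siR-GAL3 replicate 2.

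Markers of microglia were set beside the cathepsins. This list, too, was chosen with earlier results of these data known, so its counts are given for orientation. Of 14 tested, 13 were higher in siR-GAL3, 7 of them with an unadjusted p under 0.05 (against 4.41% of all genes), and the median log2 fold change was 0.25, with a range from -0.05 to 0.57. The other 7 included CX3CR1, P2RY12, CSF1R, TREM2, C1QA and LAPTM5, with log2 fold changes of 0.02, 0.02, 0.08, 0.09, 0.11 and -0.05, all with overlap. Of 15 in the matrix, 7 were higher without overlap (against 10.3% of all genes tested), none was at 0 in any library, and TMEM119, a marker of homeostatic microglia, lay between 0.415 and 0.530. Those with the smallest p were CD68 and AIF1, with log2 fold changes of 0.54 (standard error 0.07) and 0.57 (standard error 0.10), and PTPRC, with 0.43 (standard error 0.07). With all 6 libraries no microglia marker had an adjusted p under 0.05 in limma. Without siR-GAL3 replicate 2, 5 microglia markers had an adjusted p under 0.05 in limma, AIF1, ITGAM, CD68, FCER1G and PTPRC. In that setting 167 of all 8458 genes tested had one. The median of the microglia markers was then 0.29. The differences of CTSC, CTSS and CTSH lay within the range of these markers, as did those of CTSD, CTSF, CTSA and CTSK. Those of CTSB and CTSL lay below this range and that of CTSZ above it. The median of all genes tested also lay in this range, so a place within it does not set a gene apart. Set against the summed microglia markers, CTSS was 8.83% to 9.83% in siR-Con and 9.44% to 10.1% in siR-GAL3, and CTSC 2.63% to 3.54% and 3.14% to 3.53%, with overlap for both. CTSZ was 4.62% to 7.34% in siR-Con and 9.15% to 10.6% in siR-GAL3, without overlap. The complement genes C1QA, C1QB and C1QC weigh most in this sum. Their siR-Con means were 23.8, 31.5 and 31.9, against 149.8 for the whole sum. These percentages therefore reflect mainly the C1Q genes and give no measure of microglial content. The ratio of CTSZ to CD68, a glycoprotein of the lysosomes of phagocytes, was 0.759 to 1.10 in siR-Con and 1.23 to 1.32 in siR-GAL3, while that of CTSS to CD68 was 1.48 to 1.56 in siR-Con and 1.15 to 1.35 in siR-GAL3. Neither ratio overlapped, and they differed in opposite directions. CD68 had the smallest p of the microglia list in this same comparison. Its log2 fold change lay between those of CTSS (0.30) and CTSZ (1.02), so the 2 directions follow from the marker used. Ratios to markers with smaller differences were not computed. The part of microglial RNA in the cathepsin differences was not tested.

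The other cell type lists, chosen in the same way, are also given for orientation. Of 8 astrocyte markers tested, 2 were higher and 6 lower, and 3 were lower with an unadjusted p under 0.05 (against 4.25% of all genes), SLC1A2, ALDH1L1 and GFAP, with log2 fold changes of -0.45, -0.26 and -0.31. SLC1A3 and GJA1, the higher ones, had 0.06 and 0.02. Without siR-Con replicate 1, GFAP had -0.20. Of 5 fibroblast and endothelial markers tested, 1 was higher, DCN with 0.16, and 4 lower, of which COL3A1, COL1A1 and PDGFRB (-0.50, -0.42 and -0.30) had an unadjusted p under 0.05. Of 5 neuron markers, STMN2 alone had an unadjusted p under 0.05, with a log2 fold change of 0.33, SYT1 and TUBB3 had 0.18 and -0.12, and none of 8 markers of the oligodendrocyte lineage did, where PDGFRA, MOG and MBP had -0.25, 0.18 and 0.21. PDGFRA had -0.09 without siR-GAL3 replicate 2, and MBP 0.08 without siR-GAL3 replicate 3. Their part in the cathepsin values was not tested.

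**Figure D4:**
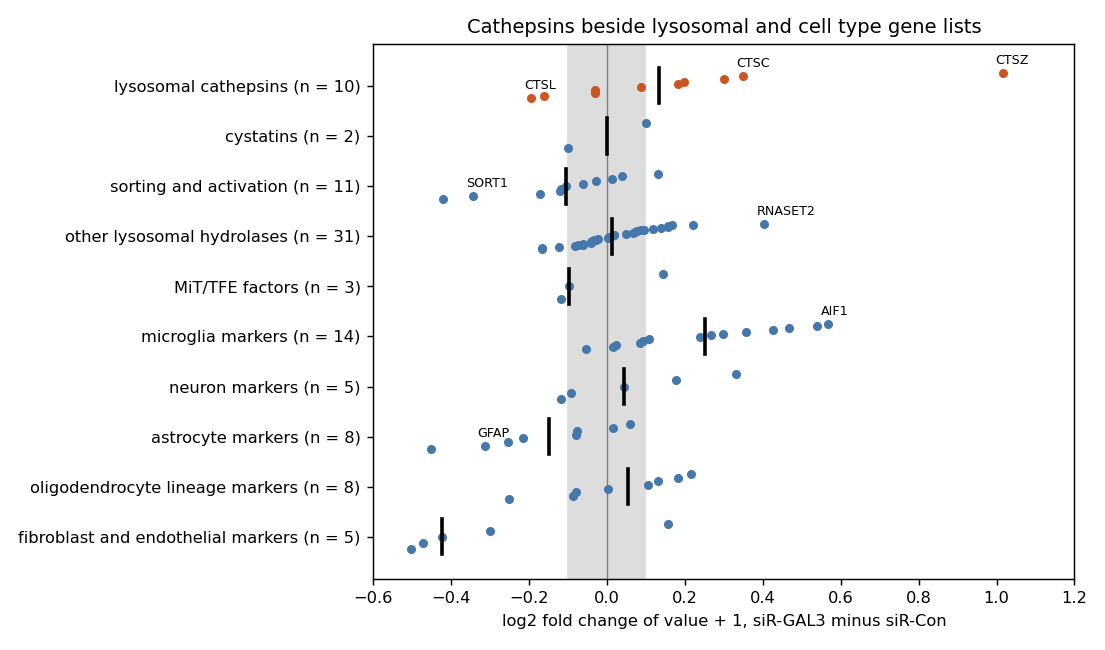
Log2 fold change of value + 1 (siR-GAL3 minus siR-Con, horizontal axis) of every tested gene in the cathepsin list (orange) and the other lists (blue), with the list median as a black line and the interquartile range of all genes tested as a grey band. CTSZ at 1.02 lies to the right of every other gene shown, and the microglia list has a median of 0.25.

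The genes whose values were most like those of CTSZ over the 6 libraries were B2M, IFI27, CYBB, IL17RA and PLAU, with Pearson's r of log2(value + 1) between 0.990 and 0.998. These r are a description over 6 libraries, and the difference between the groups enters each of them. B2M, the light chain of MHC class I, was 40.4, 28.0 and 29.6 in siR-Con and 78.9, 65.5 and 73.2 in siR-GAL3. As with CTSZ, siR-Con replicate 1 was the highest of its group and siR-GAL3 replicate 2 the lowest of its own. IFI27, an interferon-induced gene, and CYBB, the catalytic subunit of the phagocyte oxidase, had log2 fold changes of 2.08 and 0.55 (standard errors 0.28 and 0.09). The level of CYBB was low, and its group mean was 1.99 times as high in siR-GAL3. With a pseudocount of 0.1 its log2 fold change was 0.93. IL17RA, the interleukin-17 receptor, and PLAU, the urokinase protease, had 0.14 and 0.33 (standard errors 0.05 and 0.07). Among the cathepsins CTSC was most like CTSZ (r = 0.948), followed by CTSH (0.826) and CTSS (0.807), while CTSL (-0.800) and CTSB (-0.777) varied against it.

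Neighbouring genes were compared by name, since CTSS and CTSK lie side by side in the rat genome. CTSS was higher in siR-GAL3 without overlap while CTSK overlapped. The nearest protein-coding genes in the matrix on either side of this pair, SETDB1 and ARNT before and HORMAD1 and GOLPH3L after, had log2 fold changes of -0.15, -0.19 and 0.02 for SETDB1, ARNT and GOLPH3L (standard errors 0.10, 0.14 and 0.07), and HORMAD1 did not exceed 0.0486. SETDB1 was lower without overlap and the others overlapped, and without siR-GAL3 replicate 2 SETDB1 had -0.05 and ARNT -0.02. The neighbours of CTSZ were GNAS and NELFCD on one side and TUBB1 and ATP5F1E on the other. NELFCD, a subunit of the NELF complex that pauses RNA polymerase II, had a log2 fold change of -0.02 (standard error 0.07). GNAS and ATP5F1E had 0.12 and 0.30 (standard errors 0.12 and 0.16), with overlap for GNAS and higher values without overlap for ATP5F1E. Both were highest in siR-GAL3 replicate 2, the library in which CTSZ was lowest within its group, and without it they had -0.02 and 0.11. TUBB1 did not exceed 0.000364.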

How the data were processed

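RNA sequencing values of 6 libraries were used (3 siR-Con, 3 siR-GAL3, grouped by the sample labels). Reads were aligned with STAR and counted with HTSeq by the authors, who converted the counts to FPKM, took out batch effects, standardized the result and adjusted differences within groups with tools that are not named. The deposited values are treated as a normalized score, since some lie below 0. Neither depth nor counts can be recovered from them, so no counting error is given. Values below 0 were set to 0, genes were kept if their mean over the 6 libraries was 1 or more (8495 of 17648), and log2(value + 1) was fitted in limma 3.58.1 (R 4.3.3) with an intensity trend and no covariates, siR-GAL3 minus siR-Con. All p-values were adjusted over all genes tested by Benjamini-Hochberg. A p-value here sets the group difference against the spread between these libraries, estimated with information from all genes. If the libraries are technical repeats, it does not cover variation between cultures. Levels, ratios and promoter searches were computed in Python 3.11.15.

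The members and gene lists were chosen with earlier results of these data known. The genes named are the 10 cathepsins, the 3 genes of each list with the smallest p, the partners of CTSA, the cystatins, LGMN and the mannose 6-phosphate receptors, the 5 genes most like CTSZ by Pearson's r, and the 2 nearest listed protein-coding genes on each side. RBFOX3, MAP2, ELAVL3, SLC1A3, GJA1, DCN and the microglia markers other than CD68, AIF1 and PTPRC were named after their values were seen. The alternatives were another pseudocount, filter, scaling and trend, values without logs, the replicate number or the library set as a block, and each library left out in turn.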

Additional observations from a re-analysis of the deposited data

How the results depend on the processing

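The log2 fold change of CTSZ was 0.94 to 1.13 with each library left out in turn and 1.01 to 1.09 under the other alternatives. CTSZ minus the median of the other cathepsins was 0.82 to 1.05, and the median of the 10 cathepsins 0.10 to 0.15, with each library left out. The count of cathepsins without overlap was 5 to 8 with each library left out. It was 8 without siR-Con replicate 1, where CTSA, CTSB and CTSL were lower without overlap, and 4 after median-ratio scaling. With fewer libraries in a group, a lack of overlap is more common for any gene. The share over all genes was not computed for these settings, so nothing is read from the changes in this count. The pseudocount, the filters, the trend and the blocks give no value for this count.

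The count of genes with |log2 fold change| > 1 and an unadjusted p under 0.05, 27 (22 higher, 5 lower), was 25 to 29 with each library left out, 5 among genes with a mean of at least 10, where fewer genes were tested, and 316 (151 higher, 165 lower) on values that were not log-transformed, where the limit of 1 is 1 unit of the value. The scale thus decides this count, and 4 cathepsins instead of 1 are in it without logs. Genes with an adjusted p under 0.05 in limma numbered 0 in all 6 libraries, 106 with the library set as a block, 167 without siR-GAL3 replicate 2 and 17 without siR-Con replicate 1. Same-numbered libraries did not deviate together (correlations of -0.170, -0.0699 and 0.0441), and with the replicate block 27 genes passed both limits, 6 had an adjusted p under 0.05, and CTSZ had 1.02, with a cathepsin median of 0.13. Of the values of single named genes, 674 moved by less than the replicate spread, whatever their direction, and 10 moved more. Of those 10, 8 came with a pseudocount of 0.1 and 2 after quantile normalization. The sign could change among the 674, and CTSK kept its sign in 10 of 13 alternatives. Depth is unknown, so it cannot be said which low genes it limits.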
